A study of Mus musculus with 1 sample.

Results

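Metallothionein-high cells were examined in organoids grown from mouse stomach, spheres of epithelium cultured in a gel, of which 1 library of single-cell RNA was analysed. They were 148 of 1892 kept cells, or 7.82% (95% interval 6.65% to 9.13%), and the remaining 1744 kept cells served for comparison. Cells were chosen by their counts of unique molecular identifiers (UMIs), in which each captured RNA molecule is counted once. Barcodes were kept from 500 detected genes upwards, where mitochondrial UMIs made up no more than 20%. The level of 8 small gene sets was computed in each cell as ln(1 + UMIs per 10000 gene UMIs) and expressed as a z-score, its distance from the mean over cells in units of the standard deviation. A cell was called metallothionein-high when the set of Mt1 and Mt2 had the highest z-score of the 8 and that score was at least 1. The labels give the genotype as wild type and the treatment as none. Organoids were harvested on day 7 and dissociated for 30 min at 37 °C in trypsin-EDTA at 0.05%. There was 1 library and no replicate, so no difference was tested. Every interval is at 95% and covers counting error only.

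Metallothioneins are small, cysteine-rich proteins that bind zinc and copper and buffer the free level of these metals. Their genes are switched on by the zinc-sensing transcription factor MTF1 through metal response elements, and they also respond to glucocorticoids, oxidants and low oxygen. In low oxygen, hypoxia-inducible factors bind a short core sequence near genes for glycolysis, mitophagy and oxygen sensing.

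Promoter sequences are shown for both selecting genes and for a pair of genes that were higher in the chosen cells, Bnip3 and Pgk1. Each window holds the 250 bases before the annotated RefSeq start and the 50 after it, on GRCm38.p6, written 5′ to 3′ on the strand of the gene. Capitals mark the core of the metal response element (TGCACNC or TGCGCNC) in Mt1 and Mt2, and the core of the hypoxia response element (ACGTG or GCGTG) in Bnip3 and Pgk1, on either strand. Mt1 lies at chr8:94178839-94179138 on the plus strand, Mt2 at chr8:94172368-94172667 on the plus strand, Bnip3 at chr7:138909457-138909756 on the minus strand and Pgk1 at chrX:106186850-106187149 on the plus strand.
Mt1: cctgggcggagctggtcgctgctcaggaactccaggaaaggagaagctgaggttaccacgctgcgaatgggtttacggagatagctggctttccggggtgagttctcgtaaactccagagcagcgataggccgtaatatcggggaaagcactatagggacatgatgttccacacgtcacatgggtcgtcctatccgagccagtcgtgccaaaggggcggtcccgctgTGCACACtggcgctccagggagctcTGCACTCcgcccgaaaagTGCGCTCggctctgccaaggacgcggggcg
Mt2: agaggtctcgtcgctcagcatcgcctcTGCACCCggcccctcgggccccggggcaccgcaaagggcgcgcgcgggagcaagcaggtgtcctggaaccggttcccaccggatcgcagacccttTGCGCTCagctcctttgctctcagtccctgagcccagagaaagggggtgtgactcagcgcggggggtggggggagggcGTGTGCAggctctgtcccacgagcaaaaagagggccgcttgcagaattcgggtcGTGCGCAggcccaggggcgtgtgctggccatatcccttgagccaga
Bnip3: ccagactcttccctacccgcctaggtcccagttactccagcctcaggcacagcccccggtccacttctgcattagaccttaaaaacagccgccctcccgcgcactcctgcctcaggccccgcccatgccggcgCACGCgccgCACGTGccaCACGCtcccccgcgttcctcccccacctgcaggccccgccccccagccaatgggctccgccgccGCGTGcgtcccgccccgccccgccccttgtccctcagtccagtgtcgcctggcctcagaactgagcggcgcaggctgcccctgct
Pgk1: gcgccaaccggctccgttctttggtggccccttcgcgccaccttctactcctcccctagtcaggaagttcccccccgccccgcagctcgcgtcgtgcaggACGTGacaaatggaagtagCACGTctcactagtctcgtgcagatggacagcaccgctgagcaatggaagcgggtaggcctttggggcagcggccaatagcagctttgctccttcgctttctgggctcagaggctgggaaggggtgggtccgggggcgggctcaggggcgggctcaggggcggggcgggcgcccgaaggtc
The Mt1 window held 3 metal cores and the Mt2 window 4, while 25.7% of 32851 promoter windows of this length held at least 1 and 1.97% at least 3. Bnip3 held 5 hypoxia cores, of which 2 overlap on opposite strands, and Pgk1 held 2. At least 1 hypoxia core was found in 43.8% of all windows and at least 3 in 8.93%. A match describes these letters and is not evidence of binding. The promoter of 2610528A11Rik, a further gene that marks the cells, held no metal core and 2 hypoxia cores. The Mt1 and Mt2 windows held 2 hypoxia cores each as well.

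The levels of Mt1 and Mt2 chose the cells and are given as a description. Together the genes were at a median of 68.5 UMIs per 10000 in metallothionein-high cells, with a range of 34.1 to 1451. The other cells had a median of 9.34 and a maximum of 271, and 33 of them had no UMI of either gene. The highest cell held 274 metallothionein UMIs among 1888, or 14.5% of its RNA count, with 674 detected genes. The next highest was at 413 per 10000. The level was a range with no gap at the border. The 24 chosen cells with a z-score under 1.2 ran from 34.1 to 41.1 per 10000. A further 16 cells, for which this set was also the highest but at a z-score of 0.8 to 1, ran from 27.1 to 33.1.

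**Figure D1:**
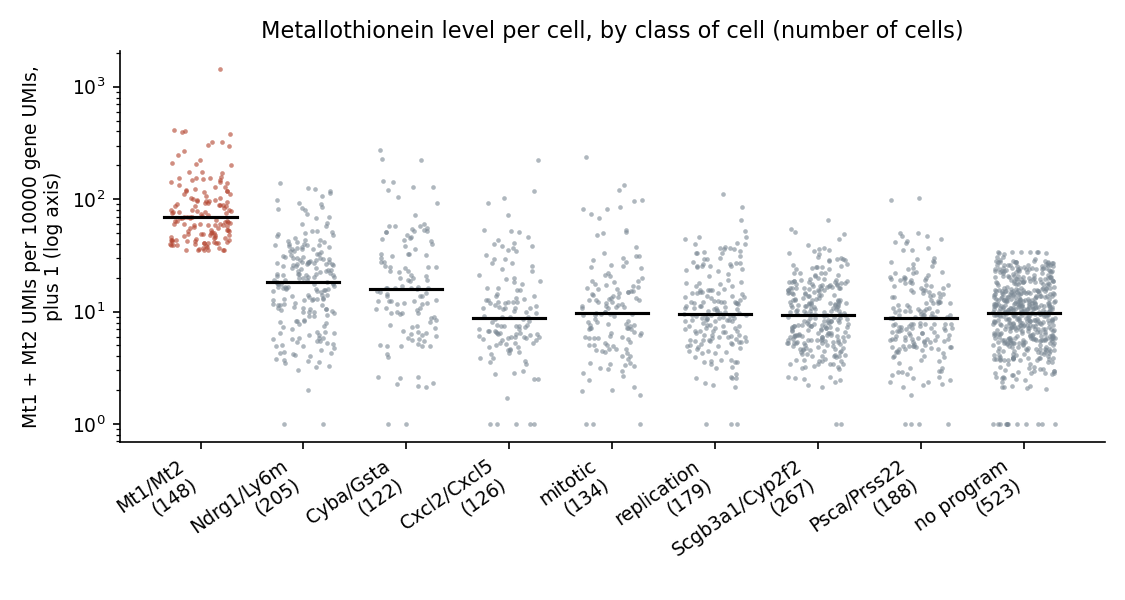
Summed Mt1 and Mt2 UMIs per 10000 gene UMIs, plus 1, on a log axis, with 1 point per cell in the 9 classes of cells made by the same rule; black lines are medians. The 148 metallothionein-high cells have a median of 68.5 per 10000. High levels are also seen in single cells of other classes, up to 271 in Cyba/Gsta, 238 in mitotic, 221 in Cxcl2/Cxcl5 and 138 in Ndrg1/Ly6m cells.

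High metallothionein was not limited to the chosen cells. A z-score of at least 1 was reached by 294 cells, and 146 of them belonged to another class because another set scored higher. Of these, 45 were Ndrg1/Ly6m cells and 31 were Cyba/Gsta cells. The converse also held, as 76 of the 148 chosen cells had a second set at a z-score of at least 1. The most frequent was the summed set of Ndrg1 and Ly6m, whose score was raised in 44 chosen cells or 29.7%, against 15.2% of the other cells. Of the 44, 43 had a UMI of Ndrg1 and 3 a UMI of Ly6m, so the raised score rested almost wholly on Ndrg1. These shares use values that also entered the rule and are a description. In the chosen cells the median level of Scgb3a1 and Cyp2f2 was 1.505 per 10000 (2.505 in the others), and the median of each of the remaining 6 sets was 0 in both groups.

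Within the family, Mt1 carried most of the signal. Mt1, on GRCm38 chromosome 8 from 94179082 to 94180327, was at 7961 CPM (UMIs summed over cells per 1000000 gene UMIs) in the chosen cells and 1409 CPM in the others. Mt2, which lies at 94172664 to 94173568 on the same chromosome and strand, was at 564 and 138 CPM. Mt2 made up 6.62% of the UMIs of both genes in the chosen cells (6.16% to 7.09%) and 8.92% in the others (8.60% to 9.26%). In Cyba/Gsta cells it made up 14.0% (13.01% to 15.05%). Mt3, the brain-type metallothionein that was not used to choose the cells, was lower in them, at 23.1 against 34.3 CPM, a ratio of 0.673 (0.451 to 0.971). That ratio was 0.177 at a z-score of at least 2, and against Ndrg1/Ly6m cells it was 1.90 (1.09 to 3.34), so its direction depended on the comparison cells. Mt4 had no UMI in the kept cells.

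Metallothionein-high cells were somewhat shallower than the others, with a median of 7626.5 UMIs and 1937.5 genes against 8612.5 UMIs and 2254.5 genes. Their ribosomal protein genes held 35.4% of UMIs (32.7% in the others) and mitochondrial genes 4.20% (4.01%). The matrix carries multiplexing tags, which mark cells of a suspension before pooling, and cells bore either CMO301 or CMO302. Metallothionein-high cells were 7.44% of CMO301 cells (5.93% to 9.18%) and 8.31% of CMO302 cells (6.53% to 10.4%). Choice of the cells depended on depth. When each cell was thinned to 3000 UMIs, which left out 57 shallower cells, 6 of them metallothionein-high, 112 cells met the rule and 83 of these were among the 148. The Cyba/Gsta cells in the comparison group stood apart, with Y-linked genes at 32.9 CPM (4.62 CPM in metallothionein-high cells). Whether they came from another pooled suspension was not tested. Where a ratio past 1.5-fold, with its interval on the same side, changed direction without them, that value is given. Smaller changes without them are not all given.

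The cells carried epithelial transcripts. Krt8 and Krt18, keratins of simple epithelia, were at 871 and 1830 CPM, and Epcam, an epithelial surface protein, at 618 CPM. Markers of some mature gastric lineages were almost absent: the 4 parietal and 5 chief cell markers had 0 and 4 UMIs in the 148 cells, the 6 endocrine markers 2 UMIs and the 3 tuft cell markers 3. Genes of mucous lineages had more UMIs, 376 for the 5 pit cell genes (289 CPM) and 796 for the 4 mucous neck genes (612 CPM). The pit cell sum was 257 to 314 CPM in every class but Cyba/Gsta cells, where it was 5222 CPM, so a level from free RNA in the droplets was not told apart from expression. Markers of fibroblasts and muscle and of red blood cells had no UMI, and those of endothelium had 1. Of 5 immune markers, Ptprc, Cd3e, Adgre1 and Cd79a had no UMI in the chosen cells. Cd68, a lysosomal protein that is abundant in macrophages, had 25 UMIs in 20 chosen cells, and its ratio to the other cells was 2.12 (1.33 to 3.23).

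Genes outside the 8 selecting sets were compared where they had at least 100 UMIs, which left 8634 genes. Of these, 287 were at least 1.5-fold higher in metallothionein-high cells, or 3.32%, and 1766 were lower by the same factor, or 20.5%. The interval of the ratio also lay beyond 1 for 184 of the higher genes (2.13%) and 983 of the lower genes (11.4%). The median gene had a ratio of 0.881, a log2 ratio of -0.18, so the balance of higher and lower genes is to be read against that shift. With ribosomal, mitochondrial and metallothionein UMIs left out of the totals, 420 genes were higher and 1455 lower.

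The genes with the firmest higher levels included several that low oxygen is known to induce. Bnip3, a mitophagy receptor of the outer mitochondrial membrane (chromosome 7, 138890836 to 138909519), had 717 UMIs in 135 of the 148 cells. Its level was 552 CPM (512 to 594) against 266 CPM (259 to 274) in the others, a ratio of 2.07 (1.91 to 2.24). Ero1l, the oxidase that drives disulfide formation in the endoplasmic reticulum, was at 389 against 202 CPM. Mgarp, a mitochondrial protein, was at 24.6 against 8.50 CPM, a ratio of 2.90 (1.92 to 4.25). The glycolytic enzymes Pgk1 and Aldoa were at 1708 against 979 CPM and at 2873 against 1677 CPM, and each had UMIs in 147 of the 148 cells. The UMIs of each of these genes lay in at least 26 of the 148 cells.

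Other firmly higher genes had varied functions. Cerk, a ceramide kinase, had a ratio of 2.46 (1.90 to 3.14), and Slc25a33, a mitochondrial carrier of pyrimidine nucleotides, 2.26 (1.83 to 2.77). Hist1h1c, a linker histone, was at 259 against 134 CPM. Selenop, a secreted selenium carrier, was at 93.1 against 46.1 CPM. Rabac1, which binds prenylated Rab proteins, was at 636 against 359 CPM. Nrn1, Spink4 and the little-studied Gm39228 and 1700084E18Rik had ratios of 2.45 to 3.45. Gm39228, a noncoding gene on chromosome 8 from 94183289 to 94184969, lies downstream of the selecting gene Mt1 on the same strand, and whether its UMIs come from Mt1 transcripts was not tested. Spink4 encodes a secreted protease inhibitor. Gkn3, a secreted gastrokine, had the highest ratio, 4.92 (3.92 to 6.12), but its 110 UMIs came from 7 cells and 71 of them from 1 cell. Without the highest cell of each group the Gkn3 ratio was 1.92, and against cells with no raised set it was 24.0. After thinning, Gm39228 was at 1.58, Nrn1 at 1.40 and 1700084E18Rik at 1.16. Nrn1 was at 1.33 within CMO301 cells, and with at least 1000 genes per cell required Spink4 was at 1.49.

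The most firmly lower genes comprised some that were spread over the other cells and some whose UMIs lay mostly in a single cell. Tmem158, a membrane protein induced by Ras signalling, was at 19.2 against 148 CPM, a ratio of 0.130 (0.0841 to 0.193) that was 0.0426 after thinning. Serpinb11, an intracellular serpin, was at 8.46 against 76.9 CPM. Timp3, an inhibitor of matrix metalloproteinases, was at 26.2 against 159 CPM, and Pls3, an actin-bundling plastin, at 23.1 against 117 CPM. Khdc1a, Mgat4c, Nav3 and Ptprz1 had ratios of 0.120 to 0.197. Nhs had no UMI in the chosen cells and 189 in the others. B020031M17Rik, Gm21818, Gm20767 and Sp110 also ranked here, but 1810 of 1870, 686 of 697, 223 of 234 and 400 of 450 of their UMIs in the other cells lay in 1 cell. The mitotic genes Nusap1 and Cenpf, at 0.130 and 0.197, were at 0.832 and 1.79 against cells with no raised set.

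**Figure D2:**
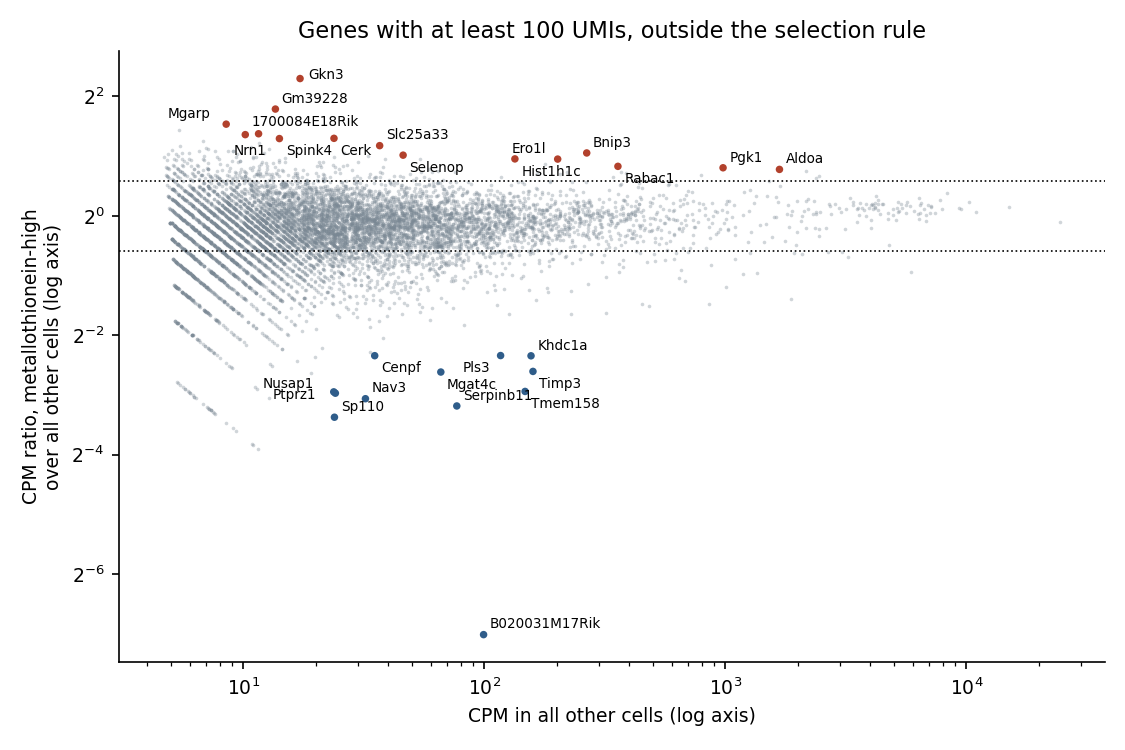
CPM ratio of metallothionein-high to all other cells (log axis) against CPM in the other cells (log axis), 1 point per gene with at least 100 UMIs that was outside the selecting sets and had a UMI in the chosen cells; dotted lines mark 1.5-fold. Red and blue points are the 15 genes with the firmest higher and lower ratios, except Gm21818, Gm20767 and Nhs, which had no UMI in the chosen cells; Bnip3, Ero1l, Pgk1 and Aldoa stand out at high levels.

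Regulators of metal supply were examined first, because metallothionein genes answer to zinc. None of the 7 measured zinc exporters and Mtf1 was 1.5-fold higher, 3 were lower, and the median ratio was 0.910, close to the 0.881 of all genes, of which 3.32% were higher and 20.5% lower. Slc30a1, the plasma membrane zinc exporter and a known MTF1 target, was at 11.5 against 8.93 CPM, a ratio of 1.29 (0.708 to 2.19), from 15 UMIs. That ratio was 2.39 after thinning, and the summed ratio of the list went from 0.863 to 1.13 after thinning. Metallothionein-high cells with no second raised set were also compared with cells in which neither the metallothionein nor the Ndrg1/Ly6m score was raised. Against these cells with neither score raised, the Slc30a1 ratio was 1.71 (0.802 to 3.25). The Slc30a1 promoter held 2 metal cores. Mtf1 itself was at 7.69 against 13.3 CPM, a ratio of 0.577 (0.273 to 1.08). Of 10 zinc importers 0 were higher and 4 lower, with a median of 0.799, beside the same 3.32% and 20.5% of all genes. Slc39a8, which imports zinc, iron and manganese, had the lowest ratio, 0.334 (0.0680 to 0.998), from 3 UMIs, and was at 0.719 in CMO302 cells. Of 7 copper genes 0 were higher and 1 was lower, and Atox1, a copper chaperone, was at 456 against 541 CPM. The 17 genes of both zinc lists had 3 to 43 UMIs each in the chosen cells, so differences near 1.5-fold were mostly not detectable at this depth.

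Iron genes were measured next. Ftl1, the ferritin light chain that stores iron, was at 3619 against 2159 CPM, a ratio of 1.68 (1.63 to 1.73). The heavy chain Fth1 was at 16497 against 14969 CPM, a ratio of 1.10 (1.09 to 1.12). Hmox1, which frees iron from haem, was at 26.2 against 14.0 CPM, a ratio of 1.86 (1.26 to 2.67). Tfrc, the transferrin receptor that takes iron up, was at 13.8 against 40.4 CPM, a ratio of 0.342 (0.202 to 0.545). In all, 2 of 8 iron genes were higher and 2 lower, beside 3.32% and 20.5% of all genes. Metallothionein-high cells with no second raised set were again set against cells with neither score raised. There the Hmox1 ratio was 1.38 (0.703 to 2.48), and that of Ftl1 was 1.78. The ferritin light chain was higher in metallothionein-high cells than in each of the other 8 classes, of which Cyba/Gsta cells came next at 2994 CPM (2898 to 3093).

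Hypoxia targets were higher as a list. Of 16 measured, 6 were at least 1.5-fold higher and 0 lower, where 3.32% of all genes were higher and 20.5% lower. The median ratio was 1.37, against 0.881 for all genes. Beside Bnip3 and Ero1l, these were Ankrd37 at 1.86 (1.43 to 2.38), Higd1a at 1.63 (1.47 to 1.80), P4ha2 at 1.62 (1.31 to 1.98) and Mxi1 at 1.57 (1.29 to 1.91). Ankrd37, Mxi1 and P4ha2 fell below 1.5-fold in an alternative. Mxi1 was at 1.30 in CMO302 cells and P4ha2 at 1.41 in CMO301 cells. Ankrd37 was at 1.32 for metallothionein-high cells with no second raised set against cells with neither score raised. Ero1l stayed above 1.5-fold but ran from 1.56 to 2.58. Higd1a is a mitochondrial survival protein, P4ha2 a collagen prolyl hydroxylase and Mxi1 an antagonist of Myc. Car9, a carbonic anhydrase, and the oxygen sensor Egln1 had ratios of 1.48 and 1.44. Not all targets differed: Vegfa, the angiogenic growth factor, had a ratio of 1.04 (0.774 to 1.36), Bnip3l 0.989 (0.880 to 1.11) and P4ha1 0.948 (0.712 to 1.24). Summed, the list was at 2403 against 1569 CPM, a ratio of 1.53 (1.48 to 1.59). A hypoxia core was present in at least 1 promoter window of all 15 tested hypoxia targets found in the promoter table, and of all 6 higher ones. Counted in the same way, 46.7% of 27025 genes had one. Among glycolysis genes it was found in 13 of 15, and in 3 of the 4 higher ones, with Gpi1 lacking it.

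Of the glycolysis genes, 4 passed 1.5-fold. Pgk1 had a ratio of 1.75 (1.67 to 1.82), Aldoa 1.71 (1.66 to 1.77), Gpi1 1.67 (1.55 to 1.79) and Gapdh 1.59 (1.55 to 1.64). Gpi1 is the isomerase that follows hexokinase, and Gapdh stands between aldolase and Pgk1 in the pathway. Pkm and Ldha, which make pyruvate and lactate, had ratios of 1.33 (1.25 to 1.41) and 1.22 (1.14 to 1.30). Pgam1 and Eno1 had ratios of 0.989 and 0.990, Tpi1 1.15, the phosphofructokinases Pfkl and Pfkp 0.972 and 1.09, and the hexokinase Hk1 0.702 (0.547 to 0.889). In all, 4 of 15 glycolysis genes were higher and 0 lower, with a median of 1.11, beside 3.32% and 20.5% of all genes. The summed level was 12284 against 8238 CPM, a ratio of 1.49 (1.47 to 1.52). After thinning, the summed ratios were 1.36 for hypoxia targets and 1.41 for glycolysis, and that of Gapdh was 1.47.

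**Figure D3:**
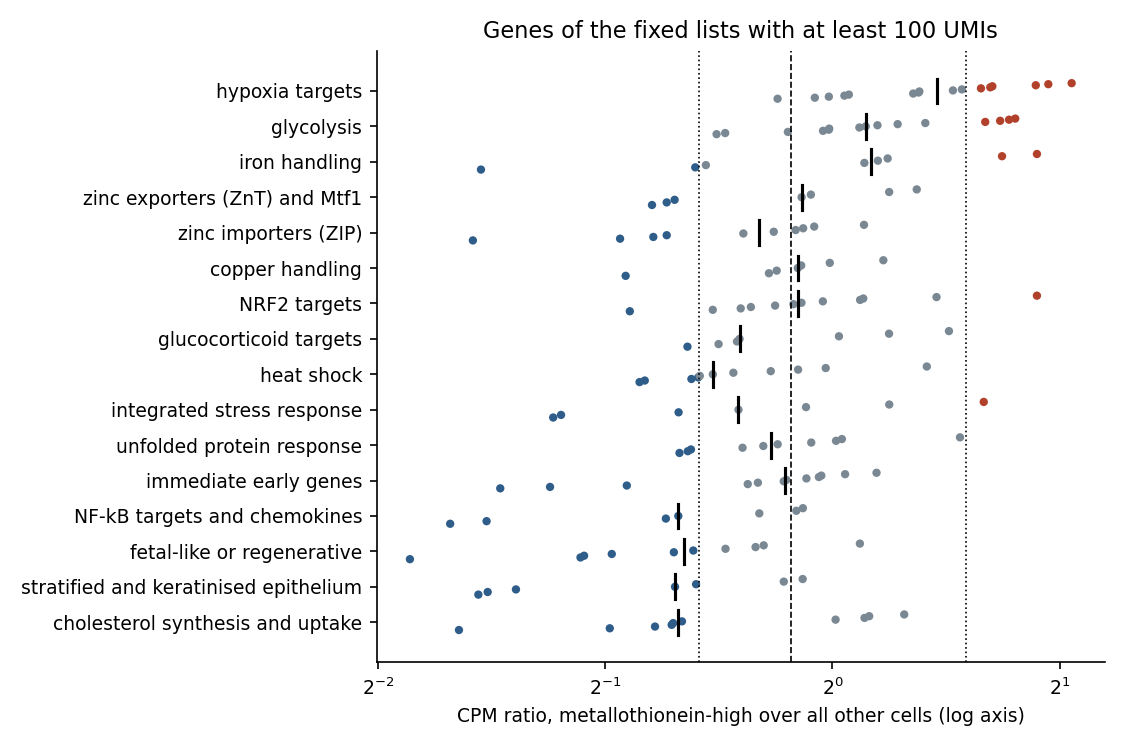
CPM ratio of metallothionein-high to all other cells (log axis) for the genes with at least 100 UMIs in 16 gene lists, 1 point per gene; solid bars are list medians, dotted lines 1.5-fold and the dashed line the median of all genes, 0.881. Hypoxia targets, at a median of 1.37, and glycolysis lie to the right of the dashed line, while most stress and fetal-like genes lie on it or to its left.

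Ndrg1 is itself induced by low oxygen, so the cells chosen by Ndrg1 and Ly6m were the closest comparison. Hypoxia targets summed to 2847 CPM in those 205 cells and 2403 CPM in metallothionein-high cells, a ratio of 0.844 (0.808 to 0.882). Glycolysis genes summed to 11909.9 and 12284 CPM. Bnip3 was at 561 (529 to 593) and 552 CPM, and Pgk1 at 1693 (1638 to 1749) and 1708 CPM, so neither gene differed beyond counting error. Ero1l was lower in metallothionein-high cells, at 389 (356 to 425) against 524 CPM (494 to 556). The other 7 classes summed to 942 to 1641 CPM for hypoxia targets and 5870 to 9165 CPM for glycolysis, below both. Cells with no raised set were at 1547 and 8333 CPM. Against these cells, 5.25% of the 8634 genes were at least 1.5-fold higher in metallothionein-high cells and 18.2% lower, while 6 of the 16 hypoxia targets were higher and 0 lower.

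The hypoxia level was also compared without the 44 chosen cells in which the Ndrg1/Ly6m score, there almost wholly Ndrg1, was raised. Against 1386 cells in which neither that score nor the metallothionein score was raised, the remaining 104 cells had a ratio of 1.63 (1.55 to 1.70) for summed hypoxia targets, 1.54 (1.51 to 1.57) for glycolysis and 2.32 (2.10 to 2.55) for Bnip3. For the 72 metallothionein-high cells with no second raised set of any kind, the ratio to the same cells was 1.61 (1.53 to 1.69) for summed hypoxia targets, 1.57 (1.54 to 1.61) for glycolysis and 2.16 (1.93 to 2.42) for Bnip3. By tag, the ratio of summed hypoxia targets was 1.52 in CMO301 cells and 1.54 in CMO302 cells, and that of glycolysis 1.52 and 1.46. Among chosen cells, those with that score raised had 1.27 times the hypoxia level (1.18 to 1.37) of those without, a split made by Ndrg1, itself a hypoxia-induced gene.

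The gene 2610528A11Rik, on chromosome 14 from 37102140 to 37114022, was given as a marker of the cells but not used to choose them. It had 70 UMIs in 35 of the 148 cells. Its level was 53.9 CPM (42.0 to 68.0) against 26.1 CPM in the others, a ratio of 2.06 (1.58 to 2.65). The level was higher still in Ndrg1/Ly6m cells, at 79.0 CPM (67.6 to 91.9), and the next class, the replication cells, was at 26.4 CPM (19.1 to 35.7). Its level was therefore raised in both classes, and metallothionein-high cells were not the highest. Its ratio was 3.06 (2.12 to 4.31) for metallothionein-high cells with no second raised set against cells with neither score raised, and 1.43 after thinning, where it lay below 1.5-fold.

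**Figure D4:**
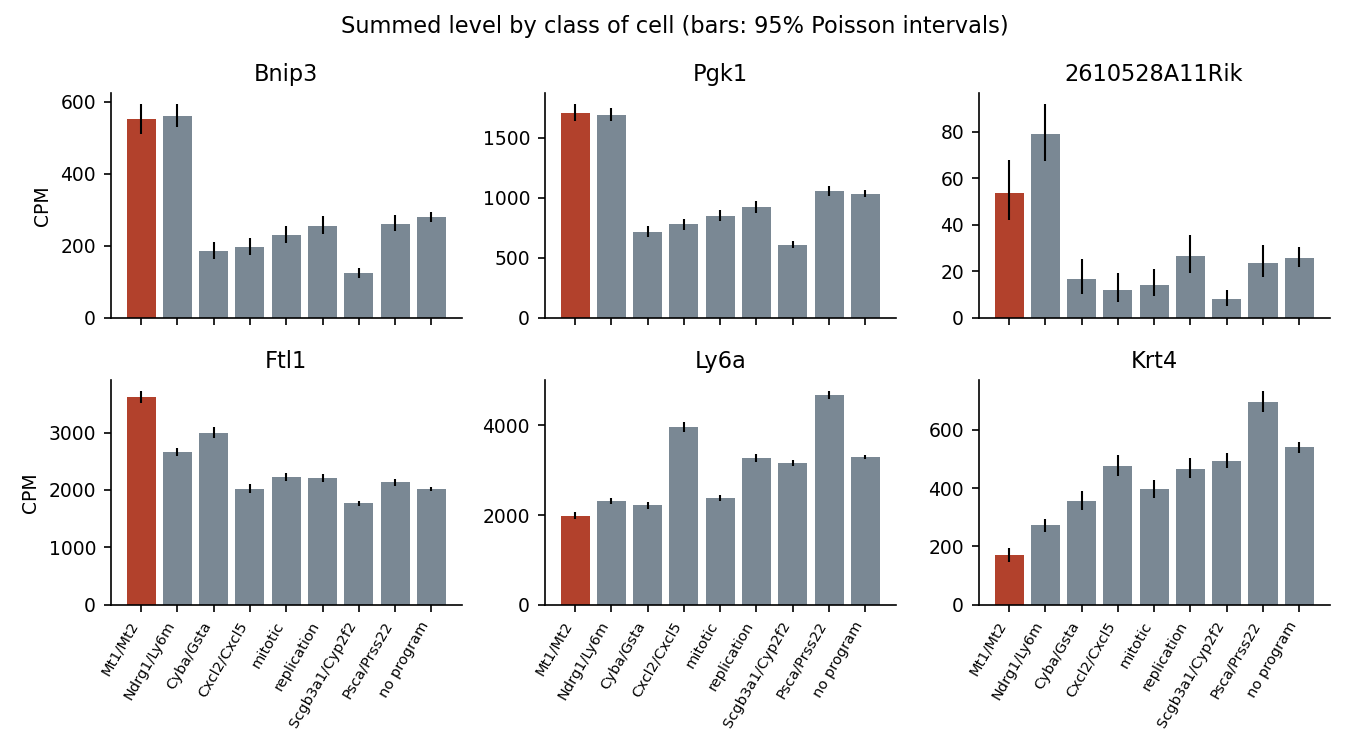
CPM of 6 genes in the 9 classes of cells (bars start at 0; lines are 95% Poisson intervals, for counting error only), with metallothionein-high cells in red. Bnip3, Pgk1 and 2610528A11Rik are high in metallothionein-high and Ndrg1/Ly6m cells, Ftl1 is highest in metallothionein-high cells, and Ly6a and Krt4 are lowest there.

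Compared directly with Ndrg1/Ly6m cells, 6.45% of the 8634 genes were at least 1.5-fold higher in metallothionein-high cells and 16% lower. The firmest higher genes were Gkn3, Tmem8, Spink4, Pigr and Mmp7. Mmp7, a matrix metalloproteinase of secretory epithelia, was at 49.2 against 15.9 CPM, although its ratio to all other cells was 0.449. Pigr, the receptor that carries IgA across epithelia, was at 30.0 against 7.95 CPM. Spink4 was at 34.6 against 9.35 CPM. The firmest lower genes included Lca5, Crct1, Zfp398 and Nudt3. Crct1, a gene of the epidermal differentiation complex, was at 3.08 against 20.1 CPM. All 4 had at most 5 UMIs each in the chosen cells, and 27 UMIs of Crct1 lay in 1 of the other cells.

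Other stress lists held few higher genes, as did all genes, of which 3.32% were higher and 20.5% lower. Of 11 heat shock genes 0 were higher and 4 lower, with a median of 0.694, and Hspb1, a small heat shock protein, was at 492 against 871 CPM. Against Ndrg1/Ly6m cells 0 of the 11 were higher and 1 was lower, and their summed ratio was 1.04 (0.992 to 1.08). Of 12 NRF2 targets, the antioxidant genes, 1 (Hmox1) was higher and 1 (G6pdx, at 0.765 after thinning) lower, with a median of 0.899. Gclm, which helps to make glutathione, had a ratio of 1.10 (0.891 to 1.34). Among 7 glucocorticoid targets 0 were higher and 1 was lower, with a median of 0.753; Tsc22d3, a leucine zipper gene induced by these hormones, was at 1.43 (1.10 to 1.82), and Fkbp5 at 0.643 (0.371 to 1.04). For 12 immediate early genes the counts were 0 and 3, with Fos at 2049 against 2358 CPM and Myc at 16.9 against 46.6 CPM. For 10 genes of the unfolded protein response they were 0 and 3, and for 7 genes of the integrated stress response 1 and 3. The higher gene there, Ddit3, had a ratio of 1.59 that was 1.12 in CMO302 cells. Among 7 NF-kB targets and chemokines 0 were higher and 4 lower, with Cxcl1 at 19.2 against 55.2 CPM, a ratio of 0.348 that was 0.670 against cells with no raised set. The rule favours this, because cells led by Cxcl2 and Cxcl5 belong to another class, where the list summed to 1494 CPM. Against cells with no raised set 2 of the 7 were lower, and the summed ratio was 0.837 (0.758 to 0.923). Interferon response genes were 2 higher and 2 lower of 10, and 1 of the higher genes, Ifit1, fell below a ratio of 1 in 5 of the alternative analyses.

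Genes of fetal-like and regenerative epithelium were lower in a number that depended on the comparison cells. Of 10 measured, 6 were lower and 0 higher, with a median of 0.635, while 4 were lower against cells with no raised set and 2 against Ndrg1/Ly6m cells. Among all genes 20.5% were lower and the median was 0.881. Ly6a, the surface protein also called Sca-1, was at 1983 CPM (1907 to 2061) against 3216 CPM, the lowest of all 9 classes. Anxa1, an annexin, was at 320 against 683 CPM, Clu, a secreted chaperone, at 1747 against 2671 CPM and Sox9, a progenitor transcription factor, at 39.2 against 84.6 CPM. Cd44, a hyaluronan receptor, was at 9.23 against 33.5 CPM, a ratio of 0.276 that was 0.632 after thinning. The Clu ratio, 0.654, was 0.820 against cells with no raised set. Cyba/Gsta cells, which were among the other cells, had a higher Clu level, and the Clu ratio without them is not given. Against Ndrg1/Ly6m cells the summed ratio of the list was 0.943, compared with 0.629 against all other cells. Of 7 keratinised epithelium genes 5 were lower, with Krt4 at 169 against 484 CPM, a ratio of 0.350 (0.304 to 0.400). After thinning, Krt4 was at 0.320, but 3 others of the 5 were no longer 1.5-fold lower, with Sprr1a at 0.810, Cnfn at 1.07 and Ppl at 1.02. Simple epithelium genes differed less, with 3 of 10 lower. Cdh1, which encodes E-cadherin, was at 56.9 against 102 CPM, but its ratio of 0.560 was 0.769 after thinning. Krt7 had a ratio of 0.600 that was 0.699 against cells with no raised set, and Krt20 had 7 UMIs in the chosen cells.

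Secretory genes depended on the comparison cells. Of 5 pit cell genes 4 were lower, beside 20.5% of all genes, including Tff1 at 104 against 321 CPM, and the summed ratio was 0.482 (0.434 to 0.534). Without the Cyba/Gsta cells that ratio was 1.03, and it was 1.10 against cells with no raised set. Aqp5, a water channel of mucous neck and antral cells, was at 598 against 1181 CPM, a ratio of 0.506 (0.471 to 0.544). Its level in Ndrg1/Ly6m cells was lower, at 471 CPM (443 to 501). Of 6 measured mucosal defence genes 2 were higher, 2610528A11Rik and Pigr, beside 3.32% of all genes. The summed ratio of all genes of that list ran the other way, at 0.731 (0.710 to 0.753). Without the highest cell of each group the Pigr ratio went from 1.70 to 1.21. Slpi, a protease inhibitor, was lower at 0.269 (0.0867 to 0.636).

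Cell cycle genes were lower against all other cells, 7 of 10 for G2 and mitosis and 5 of 9 for S phase, beside 20.5% of all genes. The rule favours this, because cells led by mitotic or replication genes belong to other classes. Summed G2 and mitosis genes were at 138 against 261 CPM, a ratio of 0.527 (0.451 to 0.611). Against cells with no raised set, which are chosen to be low in mitotic and replication genes, the ratio was 1.58. The summed S phase ratio was 0.722 against all other cells and 1.15 (0.958 to 1.38) against those cells, with 2 genes higher and 1 lower. By tag the summed G2 and mitosis ratio was 0.280 (0.208 to 0.369) in CMO301 cells and 0.840 (0.697 to 1.01) in CMO302 cells. Cholesterol genes were lower in 6 of 10, again beside 20.5% of all genes, with a median ratio of 0.624. The p53 target list had 0 higher and 1 lower of 7.

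Levels were also followed over all 1892 cells in 10 bins of rising metallothionein level, from a median of 1.83 to 80.9 per 10000. Metallothionein-high cells made up 38 cells of bin 9 and 110 of bin 10, and none of the lower bins. Bnip3 was higher in each bin than in the one before, from 165 to 452 CPM, and was 1 of 5 genes among 6665 with a rank correlation of 1 with bin order. The others were Cbr1, a carbonyl reductase, from 110 to 342 CPM, the respiratory chain genes Ndufv3 and Cox7c, and Clta, a clathrin light chain. Ftl1 went from 1716 to 3690 CPM, Gapdh from 1886 to 3588 CPM and the linker histone H1f0 from 157 to 322 CPM. Summed hypoxia targets went from 1225 to 2220 CPM, and most of this difference was present by bin 8, at 2036 CPM, where no metallothionein-high cell lay. The number of Ndrg1/Ly6m cells was 11 in bin 1, 36 in bin 8, 41 in bin 9 and 24 in bin 10. Median depth ran from 7795 to 9778 UMIs over the bins, without order. The part of either in these gradients was not tested.

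In the opposite direction, Tjp1, a tight junction scaffold, was lower in each bin than in the one before, from 236 to 85.2 CPM. Cd9, a tetraspanin, went from 581 to 367 CPM, and both genes had a rank correlation of -1 with bin order. Serpinb11 went from 139 to 9.41 CPM, Anxa1 from 951 to 341 CPM and Ly6a from 3731 to 1848 CPM. Bins share 1 library and the members weigh on bins 9 and 10, so the correlations describe these cells only.

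**Figure D5:**
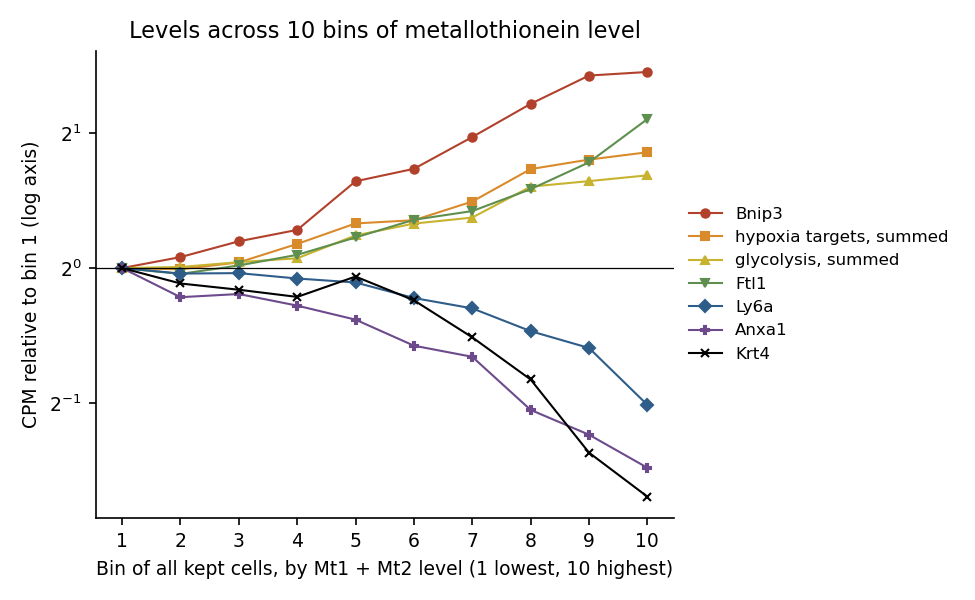
CPM relative to bin 1 (log axis) over 10 bins of all kept cells ordered by Mt1 and Mt2 level, for Bnip3, Ftl1, summed hypoxia targets, summed glycolysis genes, Ly6a, Anxa1 and Krt4. Bnip3 goes from 165 to 452 CPM and Ly6a from 3731 to 1848 CPM, and both gradients begin in bins that hold no metallothionein-high cell.

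Among the metallothionein-high cells themselves, the 37 cells with the highest level (114 to 1451 per 10000) were set against the 37 with the lowest (34.1 to 46.7). Summed hypoxia targets were 1.24 times as high in the former (1.12 to 1.37) and glycolysis genes 1.22 times (1.16 to 1.27). Ftl1 was at 4889 against 3249 CPM, a ratio of 1.504 (1.39 to 1.63), and Hmox1 at 58.0 against 10.5 CPM, a ratio of 5.52 (1.76 to 22.9). Krt4 was at 182 against 181 CPM. The cells with the highest level were shallower, with a median of 6525 against 9806 UMIs per cell. The part of depth in these values was not tested.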

How the data were processed

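One droplet single-cell library was analysed. The deposited matrix holds UMI counts per gene and barcode, which the authors did not normalize, and it was written with Cell Ranger 6.1.2, per the submitters' processing notes. Reads were mapped to GRCm38, per the labels. The 1991 barcodes held 20236916 gene UMIs, and 99 barcodes were removed. Tag UMIs were kept out of all totals. From the counts, CPM were summed over cells, with exact Poisson intervals for levels, exact conditional binomial intervals for ratios and Clopper-Pearson intervals for shares, in Python 3.11.15 with scipy 1.17.1. Scrublet (scanpy 1.11.5) called 12 cells, 2 of them metallothionein-high, as doublets, or 0.634%, and none was removed. Gene coordinates came from GENCODE M21, which held 32235 of 32285 gene identifiers. The steps were tested on simulated data.

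Named genes were those of 37 gene lists, the 15 genes at each end of the main comparison by interval bound, the 5 at each end of 2 further comparisons, and the 10 at each end of the bin order. The cells, lists and rules were chosen with earlier results of these data known. Alternatives covered the score threshold, cell filters, doublets, thinning, tags, the comparison cells, totals and the UMI minimum. Some genes that these rules pick are not reported here.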

Additional observations from a re-analysis of the deposited data

How the results depend on the processing

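Across 17 alternatives, 128 results were recomputed, which gave 1915 values. Of these, 1512 stayed within their counting interval (or 1.5 times for counts), 374 moved and 29 crossed a ratio of 1. A crossing was counted only for results past 1.5-fold whose interval lay beyond 1. Other results that crossed 1, such as the summed S phase ratio, were counted as moved or as within their interval. Gm21818 had no value against the cells nearest in depth. The last 3 alternatives (the member highest in metallothionein left out, members with no second raised set, and the highest cell of each gene left out) were chosen after seeing the data. Members with no second raised set were compared with cells in which neither the metallothionein nor the Ndrg1/Ly6m score was raised, not with all other cells. The number of cells was 48 at a z-score of at least 2, 79 among CMO301 cells and 69 among CMO302 cells, against 148.

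The number of higher genes, 287, was 769 at a z-score of at least 2, 870 after thinning, 501 and 549 within CMO301 and CMO302 cells, 448 with means over cells, 456 against the cells nearest in depth, 453 against cells with no raised set, 511 for members with no second raised set, 177 without the highest cell per gene, 567 for genes with at least 30 UMIs and 102 for at least 300. The number of lower genes, 1766, was 2917 at a z-score of at least 2, and 2763 and 790 at those UMI minimums. Fewer cells or UMIs widen the counting error behind such counts. Other causes were not tested. The 2610528A11Rik ratio, 2.06, was 1.43 after thinning and 3.06 for members with no second raised set.

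Ifit1 crossed to 0.617 at a z-score of at least 2, 0.416 after thinning, 0.456 in CMO302 cells, 0.558 for members with no second raised set and 0.517 without its highest cell. Gm20767 was at 1.54 with at least 1000 genes required. Thinning gave 1.07 for Cnfn, 1.02 for Ppl and 1.12 for Cdkn1a. Cells nearest in depth gave 1.28 for Sp110, 1.07 for Gkn2, 1.08 for Cdkn1a and 1.02 for Tff1. Cells with no raised set gave 1.31 for Sp110, 1.79 for Cenpf, 1.18 for Tpx2, 1.12 for Ube2c, 1.64 for Cenpe, 1.46 for Birc5, 1.01 for Rrm2, 1.08 for Gkn1, 1.18 for Gkn2, 1.08 for Cdkn1a, 1.28 for Tff1, 1.10 for the pit list and 1.58 for the G2 and mitosis list. Without Cyba/Gsta cells Gkn2 was at 1.202, Tff1 at 1.26 and the pit list at 1.03. The summed hypoxia ratio ran from 1.36 to 1.69 and the glycolysis ratio from 1.41 to 1.63. No paired analysis was possible because the series has a single library here.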

Other observations

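Metallothionein was also high in part of a class with a lower hypoxia level. Over summed UMIs, Cyba/Gsta cells had the second highest Mt1 level, 3207 CPM (3107 to 3309). By the median cell they did not, as Mt1 and Mt2 were at 15.004 per 10000 there and 17.316 in Ndrg1/Ly6m cells, and 31 of the 122 Cyba/Gsta cells reached a z-score of 1. Mt2 there, at 522 CPM (482 to 564), was close to the 564 CPM of metallothionein-high cells. Their hypoxia targets summed to 1282 CPM, against 2403 CPM in metallothionein-high cells. Their Clu level was 6404 CPM (6263 to 6548), against 1747 CPM (1676 to 1821).

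The 146 cells with a raised metallothionein score in other classes had hypoxia targets at 2000.0 CPM and Bnip3 at 369 CPM (340 to 399), between the 2403 and 552 CPM of metallothionein-high cells and the 1528 and 256 CPM of the 1598 other cells. These 146 cells mix classes, among them 45 Ndrg1/Ly6m and 31 Cyba/Gsta cells, whose classes summed to 2847 and 1282 CPM for hypoxia targets.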
